A study of Mus musculus with 8 samples.

Results

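Urocortin 3 and somatostatin form a paracrine loop between neighbouring endocrine cells of the islet, and 8 genes of that loop were followed here in mouse islets with and without Notch activation in β cells. The genes were picked by symbol from the 32531 gene symbols of the count table, and all 8 had a row: the ligand Ucn3, the corticotropin-releasing hormone receptors Crhr1 and Crhr2, and the somatostatin receptors Sstr1, Sstr2, Sstr3, Sstr4 and Sstr5. RNA was sequenced from whole isolated islets of 4 controls and 4 β-tetO-NICD mice. Every mouse carried RIP-Cre, the line Tg(Ins2-cre)23Herr, in which the insulin 2 promoter drives Cre in β cells, and Rosa26-rtTA, a Dox-dependent transactivator that becomes active where Cre has acted. The β-tetO-NICD mice were tetO_NICD+ and so, given Dox, made NICD, the cleaved and active part of Notch1, while controls were tetO_NICD-. Both groups received doxycycline (Dox) in drinking water for 8 weeks and shared a mixed background of C57BL/6J, 129X1/SvJ and BALB/c, so that Cre, rtTA and Dox did not differ between them. The labels give neither age nor sex.

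Libraries held 21701223 to 26413146 counts, and 3 counts, the floor used below, corresponded to 0.0995 to 0.151 CPM (counts scaled to library size). Notch1, whose reads include those of the transgene, lay between 41.6 and 64.9 CPM in controls and rose to between 573 and 1321 CPM with the transgene. Other differences between libraries crossed the groups, in part unevenly. Controls 1, 2 and 4 and β-tetO-NICD library 1 were shifted toward long transcripts (Spearman's rho of each gene's deviation with transcript length 0.418 to 0.497), whereas control 3 and β-tetO-NICD libraries 2, 4 and 5 were shifted toward short ones (−0.521 to −0.174). The Y-linked gene Eif2s3y was represented by 1300 to 1527 counts in 3 libraries (controls 2 and 4, β-tetO-NICD 5) but by no more than 1 count in the remaining 5, although the methods name male islets for gene expression. In chi-square comparisons of counts, β-tetO-NICD library 1 stood apart from the other 3 of its group (200.2 to 288 per gene, against 49.5 to 158 among those 3). Acinar enzyme genes took 5.44% to 16.6% of each library's counts.

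By way of background, urocortin 3 is a peptide of the corticotropin-releasing hormone family that mature mouse β cells store and release with insulin. It acts on Crhr2, a Gs-coupled receptor that in mouse islets is found mainly on δ cells, and so promotes release of somatostatin. Somatostatin binds Gi-coupled receptors on β and α cells, lowers cAMP, opens inwardly rectifying potassium channels and restrains insulin and glucagon release, which closes the loop. In mouse islets Sstr3 is the receptor best known from β cells, where it resides on the primary cilium, and Sstr2 the receptor best known from α cells.

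Because the manipulated pathway acts through a DNA-binding factor, RBPJ, the sequence before the annotated start is shown for the members that passed the test and for the δ cell receptor. Of the 8 members, 6 matched an entry in the RefSeq promoter table (GRCm38.p6), and Sstr1 and Sstr5 had none. Each line gives 250 bases before the start, 5′ to 3′ on the gene's strand, with capitals for any match to TGGGAA (the RBPJ core), CACNAG (the N-box bound by Hes factors) or TGCTGA (a Maf element core), searched on both strands. The windows are chr13:3945350-3945599 (minus strand) for Ucn3, chr6:55133017-55133266 (minus strand) for Crhr2 and chr15:78541407-78541656 (minus strand) for the inner of 2 Sstr3 starts in that table, an inner start whose following bases were in no GENCODE M21 transcript of Sstr3.
Ucn3: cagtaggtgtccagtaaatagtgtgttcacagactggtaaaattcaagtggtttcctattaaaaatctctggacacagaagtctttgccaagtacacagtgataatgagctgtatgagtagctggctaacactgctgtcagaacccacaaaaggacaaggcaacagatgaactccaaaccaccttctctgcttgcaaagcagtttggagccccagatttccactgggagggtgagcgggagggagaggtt
Crhr2: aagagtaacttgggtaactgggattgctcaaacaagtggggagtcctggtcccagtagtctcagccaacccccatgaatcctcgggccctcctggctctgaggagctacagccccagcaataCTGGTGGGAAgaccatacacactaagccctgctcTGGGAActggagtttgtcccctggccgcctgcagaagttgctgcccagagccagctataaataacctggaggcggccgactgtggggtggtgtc
Sstr3: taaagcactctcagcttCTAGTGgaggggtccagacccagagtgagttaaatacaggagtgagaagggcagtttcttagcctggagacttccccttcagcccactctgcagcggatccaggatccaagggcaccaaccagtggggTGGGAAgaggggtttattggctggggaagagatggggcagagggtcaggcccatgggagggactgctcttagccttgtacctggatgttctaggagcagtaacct
The Ucn3 window held none of these letters. In the Crhr2 window, 2 RBPJ cores began 124 and 94 bases before the start, and a reverse-strand N-box at 128 to 123 bases overlapped the former. The inner Sstr3 window held an RBPJ core at 105 to 100 bases and a reverse-strand N-box at 233 to 228 bases, while the window of the outer start (chr15:78544346-78544595), which overlaps a transcribed exon in GENCODE M21, held none. Among 32851 RefSeq promoter windows of the same length, 21.6% held the RBPJ core, 36.7% the N-box and 16.1% the Maf core, so matches of this kind are common. No binding was measured, and a match is a description of the sequence.

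In β-tetO-NICD islets the ligand Ucn3 and the receptor Sstr3 fell, and no member rose past the threshold. Of 24 alternative settings, 10 lost the Ucn3 call and 16 the Sstr3 call, with the direction kept in all. Of the 8 members, 5 reached the count minimum (10 counts in at least 4 libraries) and entered edgeR's quasi-likelihood fit, with p adjusted over all 15082 genes tested, and 2 of those 5 were lower, where 2.57% of all tested genes were called lower, 4.19% higher and 6.76% in either direction. Crhr1, Sstr4 and Sstr5 reached 10 counts in 3, 2 and 0 libraries and were left out of that fit. The groups did not overlap in CPM for 3 of the 5 tested members (2 with β-tetO-NICD below and 1 above), beside 16.1% of all tested genes (7.92% below and 8.22% above). These are bulk measurements of whole islets, so fewer cells of a type and less RNA per cell cannot be told apart.

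Ucn3 (chr13:3940688-3945349, minus strand, GRCm38) was at 292.1, 187, 251 and 392 CPM in controls 1 to 4 and at 101.0, 113, 148 and 157 CPM in islets of the β-tetO-NICD mice (libraries 1, 2, 4 and 5). Every β-tetO-NICD library lay below every control, and control 4 was the highest of all 8. The means were 281 ± 85.9 and 130 ± 27.1 CPM (SD, n = 4 each), so that controls held 2.17 times the β-tetO-NICD level. The log2 fold change was −1.11 (SE 0.24, edgeR adjusted p = 0.0273). Leaving out a library kept the fold change between −1.26 and −0.90, but the call was lost without control 1 (−1.08, adjusted p = 0.0792), control 4 (−0.90, adjusted p = 0.083), β-tetO-NICD library 2 (−1.05, adjusted p = 0.0968) or β-tetO-NICD library 4 (−1.18, adjusted p = 0.0656). It was also lost with Eif2s3y as a covariate (−1.07, adjusted p = 0.0511), in the 5 libraries that lack Eif2s3y (−1.17, adjusted p = 0.0893) and with the library's length slope (−1.23, adjusted p = 0.103) or length class (−1.19, adjusted p = 0.0553) as a covariate, with the direction kept each time.

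**Figure D1:**
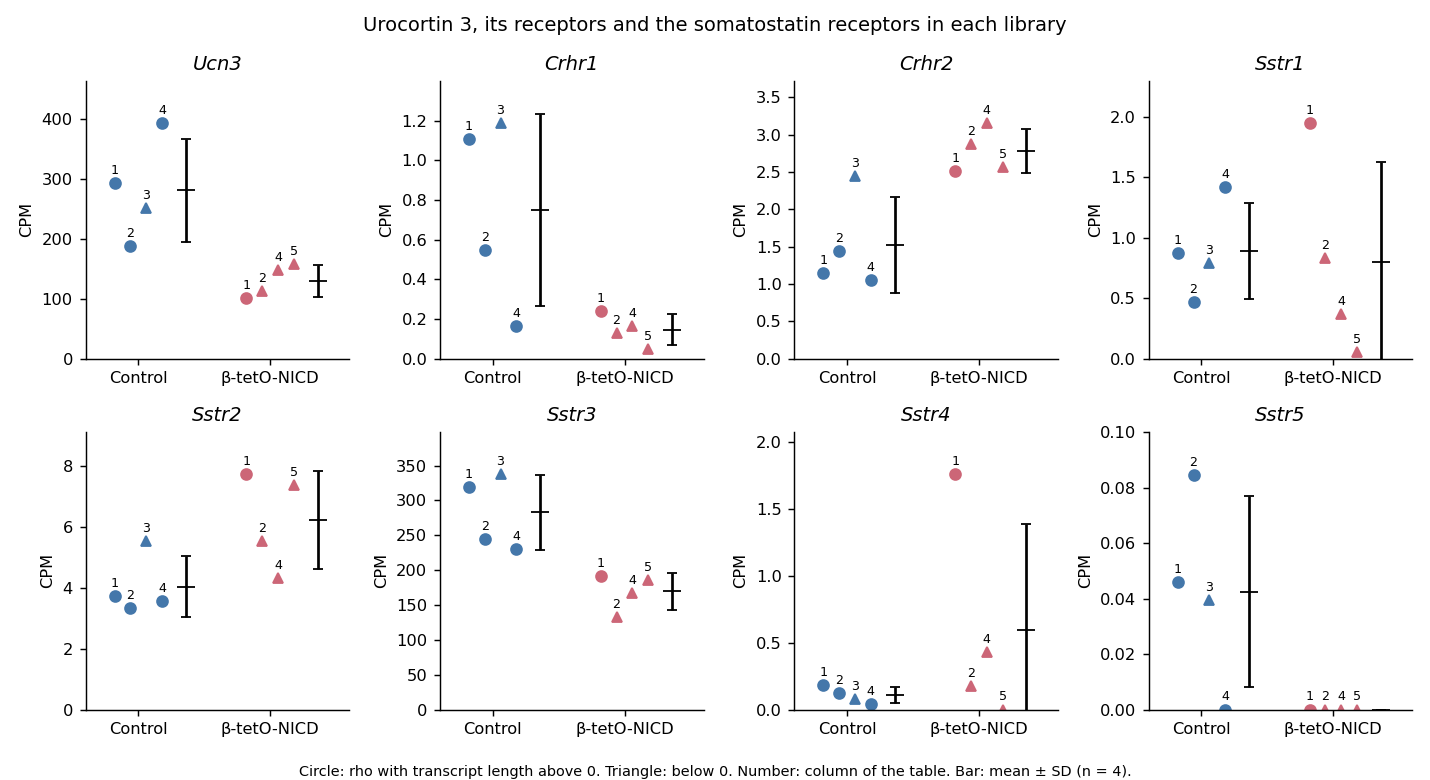
Level in CPM of the 8 loop genes in each library, 4 controls and 4 β-tetO-NICD islets, on a separate linear axis for each gene. Numbers are column numbers, circles mark libraries shifted toward long transcripts and triangles those shifted toward short ones, and bars give the mean ± SD, cut at 0. All 4 β-tetO-NICD points lie below all controls for Ucn3 (101.0 to 157 against 187 to 392) and Sstr3, and above them for Crhr2.

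Crhr2 (chr6:55090049-55133016, minus strand), the receptor through which urocortin 3 acts on δ cells, was detected at low level. It was at 1.15, 1.43, 2.45 and 1.05 CPM in controls against at 2.52, 2.88, 3.15 and 2.57 CPM in β-tetO-NICD islets, from 25 to 62 and 51 to 95 counts. The groups did not overlap, but control 3 came within a short distance of the lowest β-tetO-NICD library. The means were 1.52 ± 0.640 and 2.78 ± 0.296 CPM (SD, n = 4 each), and the log2 fold change of 0.86 (SE 0.31) missed the threshold (edgeR adjusted p = 0.106). Without control 3 it was 1.19 and passed (adjusted p = 0.0421).

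Crhr1 (chr11:104132855-104175523, plus strand), the family's other receptor, for which urocortin 3 has little affinity, had 24, 13, 30 and 4 counts in controls against 5, 3, 5 and 1 in β-tetO-NICD islets. Control 4 fell among the β-tetO-NICD libraries, and the other 3 controls lay above all of them. In CPM the means were 0.751 ± 0.484 and 0.146 ± 0.0777 (SD, n = 4 each). Pooled, 14 counts against 71 gave a β-tetO-NICD to control ratio of 0.20 (95% exact interval 0.104 to 0.358, which covers counting error only). Across mice the difference did not pass an exact two-sided permutation test (p = 0.0857, where 0.0286 is the smallest that 4 against 4 allow), nor did it in an edgeR fit with no count filter (log2 fold change −2.31, adjusted p = 0.0708).

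The other peptides of the family contributed little RNA. Crh and Ucn, the genes of corticotropin-releasing hormone and urocortin, had 0 counts in every library, which allows up to 0.151 CPM, and Ucn2 had at most 2. Crhbp, which encodes a secreted protein that binds corticotropin-releasing hormone and urocortin, had 17, 17, 12 and 9 counts in controls against 3, 2, 4 and 2 in β-tetO-NICD islets. All 4 β-tetO-NICD libraries were below all controls, with means of 0.116 ± 0.0261 and 0.585 ± 0.198 CPM (SD, n = 4 each). Its pooled ratio was 0.203 (95% exact interval 0.0958 to 0.392, counting error only), with an exact permutation p of 0.0286, the smallest possible. Crhbp was under the count minimum, and in the fit with no filter its log2 fold change was −2.28 (edgeR adjusted p = 0.0261). The exact tests on genes under the minimum numbered 5, those of Crhr1, Sstr4, Sstr5, Crhbp and Cort, were run after the data were seen and are not adjusted for their number.

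Sst, the somatostatin gene itself (chr16:23889573-23890958, minus strand), is not among the 8 members but is the ligand of the 5 receptors. It was at 2652, 2267, 6223 and 3483 CPM in controls against at 4753, 13716, 10118 and 11595 CPM in β-tetO-NICD islets. The groups overlapped through control 3 and β-tetO-NICD library 1, and the other 3 β-tetO-NICD libraries were above every control. The means were 3656 ± 1785 and 10045 ± 3825 CPM (SD, n = 4 each), with a log2 fold change of 1.46 (SE 0.41) that missed the threshold (edgeR adjusted p = 0.0619). It passed without control 3 (1.84, adjusted p = 0.0357), without β-tetO-NICD library 1 (1.69, adjusted p = 0.0102), with an acinar score as a covariate (adjusted p = 0.0278) and by DESeq2 (adjusted p = 0.00233), but the fold change was 0.83 with an offset for transcript length, 0.56 with the length slope as a covariate (adjusted p = 0.42) and 1.10 in the 5 libraries that lack Eif2s3y (adjusted p = 0.512). Cort, whose product cortistatin binds the same receptors, had 28 counts in all controls together and 48 in all β-tetO-NICD islets, 29 of them in library 5 (exact permutation p = 0.771).

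Sstr3 (chr15:78537008-78544685, minus strand), the ciliary receptor of β cells, was by far the most abundant somatostatin receptor RNA. It was at 319, 245, 338 and 230.2 CPM in controls against at 192, 133, 167 and 186 CPM in β-tetO-NICD islets. All β-tetO-NICD libraries were below all controls, with control 4 the closest to them. Means were 283 ± 53.3 and 169 ± 26.5 CPM (SD, n = 4 each), so that controls held 1.67 times the β-tetO-NICD level, and the log2 fold change was −0.74 (SE 0.19, edgeR adjusted p = 0.0457). The direction held when any library was left out (−0.82 to −0.64), but the call stood only without β-tetO-NICD library 1 (−0.80, adjusted p = 0.0159): it was lost without control 1, 2, 3 or 4 (−0.67, −0.80, −0.64 and −0.82, with adjusted p of 0.124, 0.0827, 0.0751 and 0.0681) and without β-tetO-NICD library 2, 4 or 5 (−0.64, −0.73 and −0.79, with adjusted p of 0.135, 0.113 and 0.0625). It was lost as well with Eif2s3y as a covariate (−0.77, adjusted p = 0.0572), in the 5 libraries that lack Eif2s3y (−1.0, adjusted p = 0.122), and with an offset for transcript length (−0.61, adjusted p = 0.0578) or the length slope (−0.77, adjusted p = 0.106) or length class (−0.76, adjusted p = 0.0648) as a covariate.

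Sstr2 (chr11:113619342-113626028, plus strand), the α cell receptor, was at 3.73, 3.33, 5.54 and 3.57 CPM in controls against at 7.74, 5.54, 4.31 and 7.40 CPM in β-tetO-NICD islets. The groups overlapped, with control 3 above β-tetO-NICD library 4. The means were 4.04 ± 1.01 and 6.25 ± 1.61 CPM (SD, n = 4 each) and the log2 fold change of 0.62 (SE 0.26) did not pass (edgeR adjusted p = 0.140), nor did the 0.33 found in the 5 libraries that lack Eif2s3y (adjusted p = 0.733). Sstr2 overlaps Slc39a11 on the opposite strand (5427 counts in all 8 libraries), and the strand setting of the counting is not given in the sources used here, so some reads of the pair may not be separable.

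Sstr1 (chr12:58211772-58214444, plus strand) had 19, 11, 20 and 35 counts in controls against 41, 19, 11 and 1 in β-tetO-NICD islets. Its spread among β-tetO-NICD mice covered the whole range of the controls, with means of 0.888 ± 0.397 and 0.798 ± 0.830 CPM (SD, n = 4 each). The log2 fold change was −0.16 (SE 0.73, edgeR adjusted p = 0.889) and turned positive without control 4 (0.15), β-tetO-NICD library 4 (0.08) or β-tetO-NICD library 5 (0.21), in the libraries that lack Eif2s3y (0.30) and with length slope (0.72) or length class (0.18) as a covariate.

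Sstr4 (chr2:148395344-148396767, plus strand) was near the floor in controls, with 4, 3, 2 and 1 counts, and had 37, 4, 13 and 0 in β-tetO-NICD islets. Library 1 held most of the β-tetO-NICD counts, and library 5 had none. The mean difference was 0.483 CPM (exact permutation p = 0.286) and fell to 0.0943 CPM without β-tetO-NICD library 1. The pooled ratio of 54 to 10 counts was 5.48 (95% exact interval 2.76 to 12.1, counting error only). Sstr5 (chr17:25489875-25497288, minus strand), a receptor described in β and δ cells, had 1, 2, 1 and 0 counts in controls and 0 in every β-tetO-NICD library. Both groups were at or under the floor, so no fold change is given and a difference was not detectable at this depth.

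**Figure D2:**
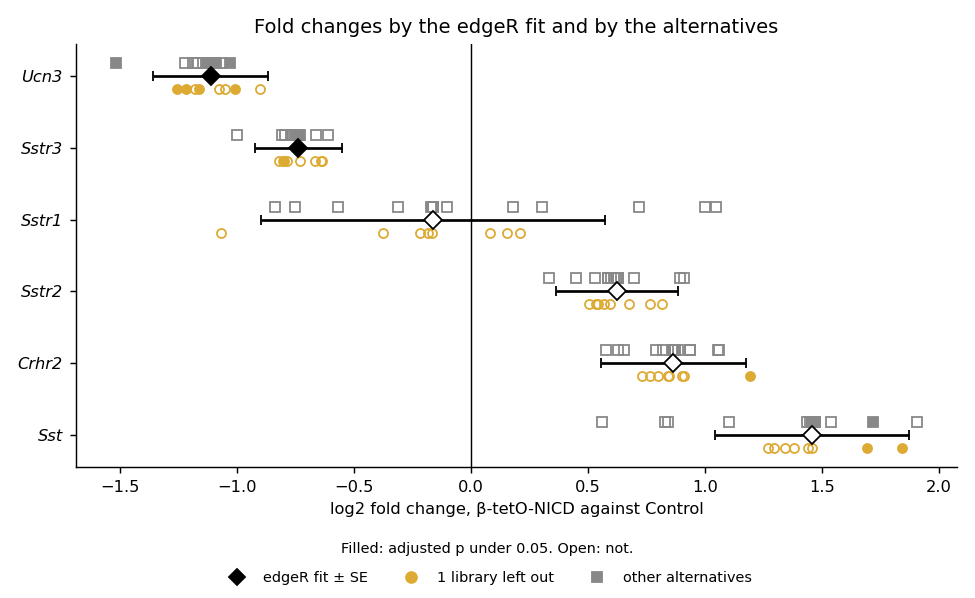
The log2 fold change (β-tetO-NICD over control) of the 5 tested members and of Sst. Diamonds with bars are the edgeR estimate ± SE, filled where the adjusted p was below 0.05, gold circles leave out 1 library and grey squares are other settings. Ucn3 and Sstr3 stay below 0 under every setting shown, Crhr2, Sstr2 and Sst stay above 0, and Sstr1 falls on both sides.

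Levels can be compared between genes only per transcript length, so CPM was divided by the length of the longest coding transcript in kilobases. In controls Ucn3 stood at 190.0 ± 58.1 CPM per kb, Sstr3 at 66.2 ± 12.5, Sstr2 at 1.89 ± 0.471 and Crhr2 at 0.565 ± 0.237 (SD, n = 4 each). Each of the first 3 was separated from the next by every control, whereas Crhr2, Sstr1 (0.441 ± 0.197), Crhr1 (0.305 ± 0.197), Sstr4 (0.0756 ± 0.0436) and Sstr5 (0.0156 ± 0.0126) each overlapped their neighbour. In β-tetO-NICD islets the order of the upper 4 was unchanged, at 87.7 ± 18.3 CPM per kb for Ucn3, 39.6 ± 6.20 for Sstr3, 2.92 ± 0.752 for Sstr2 and 1.03 ± 0.110 for Crhr2. Crhr2 then overlapped Sstr4, and Sstr4, Sstr1 and Crhr1 overlapped in turn.

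The somatostatin receptors were also summed within each library. The sum of the 5 receptors came to 324, 249, 344 and 235 CPM in controls against 203, 140, 172 and 194 CPM in β-tetO-NICD islets, without overlap, with means of 288 ± 54.0 and 177 ± 28.2 CPM (SD, n = 4 each). Of the sum per kb, Sstr3 made up 95.7% to 97.0% in controls and 88.5% to 94.0% in β-tetO-NICD islets, and Sstr2 made up 2.26% to 3.15% and 4.85% to 7.55%. The ranges of both shares were separate between the groups. Shares of a sum are tied, so the lower Sstr3 level by itself raises the share of Sstr2. In CPM, Sstr2 overlapped between the groups. These sums and shares combine members and are given without a test.

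Ucn3, Sstr3, Crhr2, Sstr2 and Sst were also set against the markers of the cell type each is best known from. The β cell list (12 genes tested) averaged 9.70 ± 0.151 on the log2 CPM scale in controls against 8.53 ± 0.242 in β-tetO-NICD islets. Ucn3 minus that average was −1.67, −2.05, −1.57 and −1.19 log2 units in controls against −2.17, −1.60, −1.39 and −0.96 in β-tetO-NICD islets. The groups overlapped fully, and the difference of 0.087 did not pass an exact permutation test (p = 0.771, 0.771 after Benjamini-Hochberg adjustment over the 5 comparisons of this kind). It changed sign when single libraries were left out (−0.10 to 0.30), so a difference relative to other β cell genes was not resolved in either direction. Sstr3 stood 0.44 log2 units higher relative to the average of the β cell list in β-tetO-NICD islets (exact p = 0.114, adjusted 0.19). That average differed by −1.17 between the groups. The median log2 fold change of the list was −0.69, close to the −0.74 of Sstr3. Within long-shifted and short-shifted libraries the differences relative to the average were −0.53 and 0.25 for Ucn3 and 0.48 and 0.05 for Sstr3.

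The δ cell list (5 genes tested) averaged 6.03 ± 0.410 in controls against 6.78 ± 0.185 in β-tetO-NICD islets on the log2 CPM scale, and the α cell list (7 genes) 5.92 ± 0.409 and 6.96 ± 0.272. Relative to the δ cell list, Crhr2 differed by 0.16 (exact p = 0.714, adjusted 0.771), by 0.34 when Sst was left out of that list, and by 0.32 and −0.16 among long-shifted and short-shifted libraries. Sst, set against the other 4 δ cell genes, differed by 0.91 (exact p = 0.0571, adjusted 0.143), and by 0.11 and 0.68 within the long-shifted and short-shifted libraries. Sstr2 minus the α cell list was −3.68, −4.01, −4.03 and −3.90 log2 units in controls against −4.28, −4.47, −4.46 and −4.12 in β-tetO-NICD islets. All β-tetO-NICD values were the lower ones, by 0.43 (exact p = 0.0286, the smallest possible, adjusted 0.143), with differences of −0.42 and −0.32 within long-shifted and short-shifted libraries. The comparisons for Sst and Sstr2 were added after the data were seen.

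**Figure D3:**
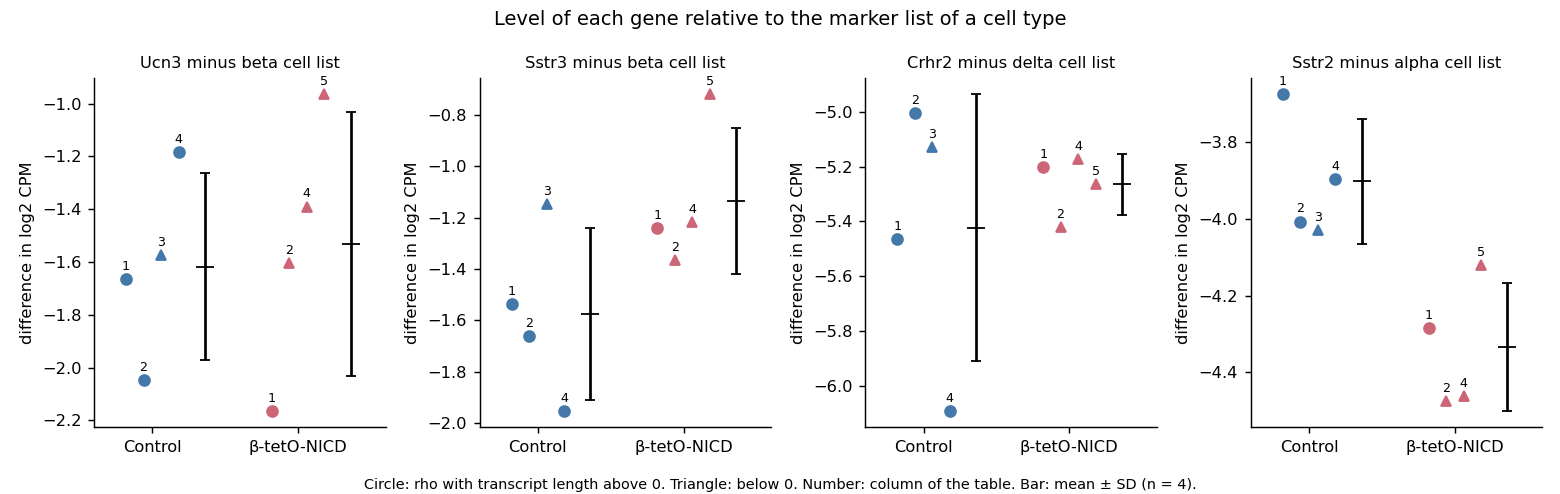
Log2 CPM of a loop gene minus the mean log2 CPM of the markers of its cell type, by library, for controls and β-tetO-NICD islets, with the mean ± SD. Ucn3 against β cell markers and Crhr2 against δ cell markers overlap between the groups, while Sstr2 against α cell markers lies lower in all 4 β-tetO-NICD libraries, by 0.43 on average.

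The length shift of the libraries crossed the groups unevenly, and differences were also taken within libraries of like shift, as values with no test. Among long-shifted libraries (1 β-tetO-NICD, 3 controls) the log2 difference of Ucn3 was −1.46 and that of Sstr3 −0.45, and among short-shifted ones (3 β-tetO-NICD, 1 control) they were −0.87 and −1.07. Both kept their direction. Crhr2 was at 1.01 and 0.21, Sst at 0.79 and 0.91, and Sstr2 at 1.11 and 0.02, so that Sstr2 barely differed among short-shifted libraries. Sstr1 took opposite signs (1.13 and −1.20).

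The cell type lists place these values among their neighbours. Of the 12 β cell genes 3 fell and none rose, beside 2.57% of all tested genes called lower, with a median log2 fold change of −0.69 beside 0.00075 for all tested genes: G6pc2, a glucose-6-phosphatase of β cells (−2.41, edgeR adjusted p = 0.000138), Trpm5, a calcium-activated cation channel (−2.10, adjusted p = 0.00524), and Slc2a2, the glucose transporter GLUT2 (−1.80, adjusted p = 0.0331). In the same list 4 genes had a lower fold change than Ucn3 and 5 a lower one than Sstr3. Of the 7 α cell genes 3 rose, beside 4.19% of all tested genes, among them the transcription factors Irx1 (1.46, adjusted p = 0.0301) and Irx2 (1.30, adjusted p = 0.0431), and the summed level of the list was 12072 to 43159 CPM in controls against 55510 to 70492 CPM in β-tetO-NICD islets. Of 5 tested δ cell genes 1 rose, the transcription factor Hhex (1.01, adjusted p = 0.0436), with a median of 0.86. The summed levels of the other lists overlapped between controls and β-tetO-NICD islets. They were 157210 to 197750 against 72538 to 172040 CPM for β cells and 2462 to 6606 against 5107 to 14176 CPM for δ cells. On leaving out a library, G6pc2 and Trpm5 kept their calls in all 8 fits. Slc2a2 and Hhex passed only without control 3 or β-tetO-NICD library 1, and Irx1 and Irx2 also without β-tetO-NICD library 4, with adjusted p otherwise up to 0.104, 0.124, 0.0941 and 0.122. In the libraries that lack Eif2s3y, and with Eif2s3y as a covariate, the calls of Slc2a2, Hhex, Irx1 and Irx2 were lost (adjusted p 0.31, 0.338, 0.379 and 0.454, and 0.0572, 0.0692, 0.0514 and 0.0657), and with the length slope as a covariate those of Hhex (0.62), Irx1 (1.25) and Irx2 (adjusted p = 0.185), while Slc2a2 was at −0.94. With length class as a covariate those of Hhex (adjusted p = 0.0904) and Irx2 (adjusted p = 0.0806) were lost. With an offset for transcript length the list medians were −1.20 for β cells, 0.89 for α cells and 0.42 for δ cells.

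Markers of other cells in the preparation gave 1 call, beside 6.76% of all tested genes called in either direction. The acinar list (19 tested, median 0.43, 58951 to 116770 CPM in controls against 47691 to 171100 in β-tetO-NICD islets), the duct list (7 tested, median 0.59), the endothelial list (7 tested, median −0.21), the mesenchyme list (7 tested, median 0.10) and the pair of pancreatic polypeptide cell genes had no call. The 2 most abundant genes of each were Ctrb1 (0.58) and Pnlip (0.53) for acinar, Krt7 (−0.08) and Spp1 (1.25) for duct, Plvap (0.51) and Kdr (−0.24) for endothelial and Col3a1 (0.30) and Dcn (0.34) for mesenchymal cells, and Ppy (−0.78) and Pyy (0.49) for pancreatic polypeptide cells, with edgeR adjusted p of 0.0556 for Spp1 and at least 0.126 for the others. Without control 2, Spp1 (1.55, adjusted p = 0.0454) and Col3a1 (1.13, adjusted p = 0.0422) passed and Dcn was at 0.97 (adjusted p = 0.0516), and without β-tetO-NICD library 1, Spp1 (1.44, adjusted p = 0.00995) and Plvap (0.64, adjusted p = 0.0222) passed. Spp1 also passed with Eif2s3y (adjusted p = 0.039) or the acinar score (adjusted p = 0.0325) as a covariate. It passed as well by DESeq2 (adjusted p = 0.00467), with upper-quartile normalization (adjusted p = 0.0465) and with no filter (adjusted p = 0.0478). Col3a1 passed in the libraries that lack Eif2s3y (1.45, adjusted p = 0.0436), and Krt7 with the length slope as a covariate (−0.61, adjusted p = 0.0375). No gene of these lists was at 0 in every library. Of 8 macrophage genes 1 rose, the complement gene C1qa (0.95, adjusted p = 0.0273, lost when any library other than control 3 or β-tetO-NICD library 1 was left out, with p up to 0.0898, and with the length offset, 0.43, or length slope, 0.52), and the list's summed level was 135 to 190 CPM in controls against 196 to 303 CPM in β-tetO-NICD islets. The C1qa call was also lost in the libraries that lack Eif2s3y (0.75, adjusted p = 0.338) and with length class as a covariate (0.70, adjusted p = 0.0511). With the acinar score as a covariate, Ucn3 was at −1.12 (edgeR adjusted p = 0.0182), Sstr3 at −0.74 (adjusted p = 0.0318) and Crhr2 at 0.88 (adjusted p = 0.0795). The part of the other lists in the values of the loop genes was not tested.

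**Figure D4:**
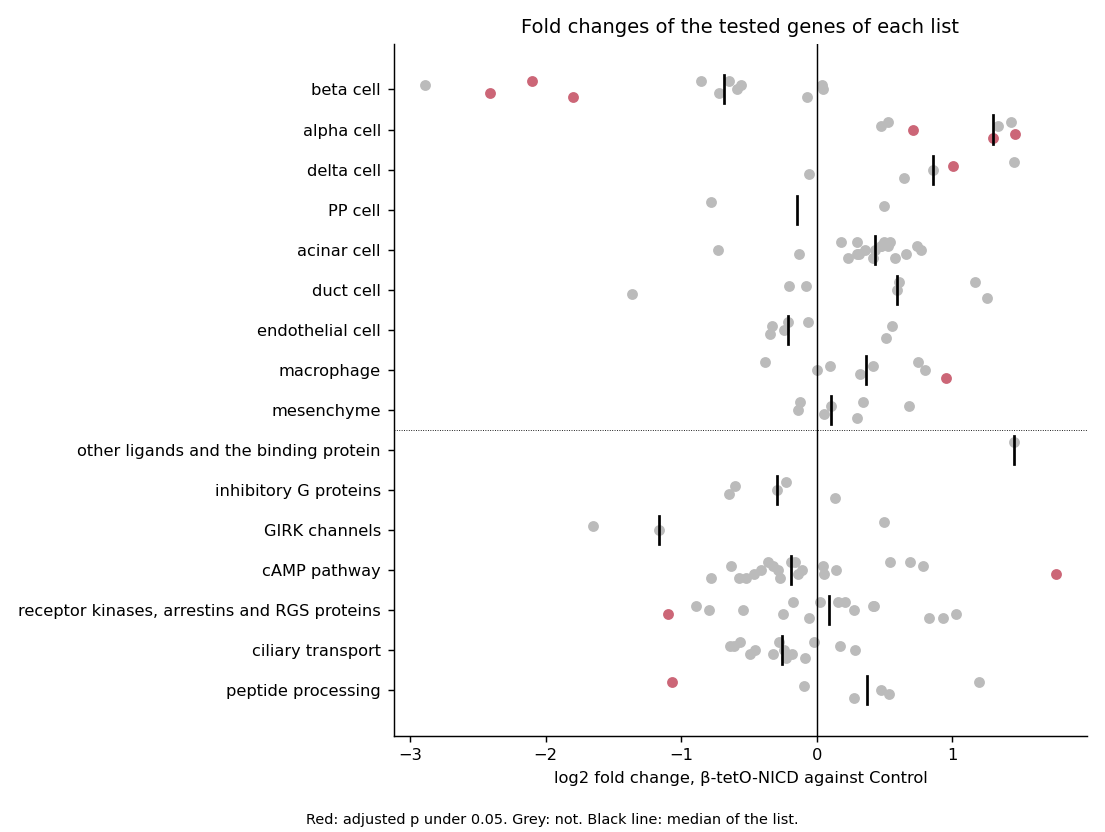
The log2 fold change (β-tetO-NICD over control) of each tested gene in the cell type lists and in the lists of the pathway, which the dotted line separates. Red points passed an adjusted p of 0.05 and the black line is the list's median, −0.69 for β cell genes, 1.30 for α cell genes and 0.86 for δ cell genes.

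Downstream of both receptor families lie G proteins, adenylyl cyclases and potassium channels, where 1 gene passed the test, beside 6.76% of all tested genes. None of the 5 genes of inhibitory G protein α subunits did, and 4 of the 5 fold changes were negative (median −0.30), among them Gnai2 (701 ± 109 CPM in controls against 462 ± 60.8 CPM in β-tetO-NICD islets, SD, n = 4 each, edgeR adjusted p = 0.0698), which passed with an offset for transcript length (−0.78, adjusted p = 0.0118), with length class as a covariate (−0.73, adjusted p = 0.0488) and by DESeq2 (adjusted p = 0.00872). Gnao1 was at −0.65 (adjusted p = 0.18), and at −0.99 without β-tetO-NICD library 1, where it passed (adjusted p = 0.0165), but at 0.04 with the length slope as a covariate (adjusted p = 0.918). None of 3 tested GIRK channel genes passed, with Kcnj5 at −1.65 (adjusted p = 0.199, and −0.67 without control 4 or −2.45 without β-tetO-NICD library 4) and Kcnj3 at 0.50 (adjusted p = 0.176). Of 21 genes of cAMP synthesis, breakdown and response, 1 rose and none fell (median −0.19). It was Adcy8, a calcium-stimulated adenylyl cyclase, at 1.55 ± 0.367 CPM in controls against 5.29 ± 2.09 CPM in β-tetO-NICD islets (log2 fold change 1.77, adjusted p = 0.0140), and it passed in all 8 fits that left out a library but not in the libraries that lack Eif2s3y (1.75, adjusted p = 0.12).

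Among genes that tune, carry or process the loop's proteins 2 were called, both lower, beside 2.57% of all tested genes called lower and 6.76% in either direction. Of 16 genes of receptor kinases, arrestins and RGS proteins 1 fell (median 0.09), Grk5, a kinase that desensitizes G protein-coupled receptors, at 29.7 ± 4.95 CPM in controls against 13.9 ± 4.76 CPM in β-tetO-NICD islets (log2 fold change −1.10, edgeR adjusted p = 0.0262). Grk2 and Grk3 were also listed but had no row under those symbols. None of 14 ciliary transport genes passed, although 12 of the fold changes were negative (median −0.26, and 11 with upper-quartile normalization), with Bbs2 at −0.09 (adjusted p = 0.609) and Ttc8 at −0.23 (adjusted p = 0.298). Of 6 peptide processing genes 1 fell (median 0.37), Pcsk1, the prohormone convertase PC1/3, at 547 ± 168 CPM in controls against 260.4 ± 64.8 CPM in β-tetO-NICD islets (log2 fold change −1.07, adjusted p = 0.0446). On leaving out a library, Grk5 passed only without control 4 or β-tetO-NICD library 1 or 5 (adjusted p otherwise up to 0.0892), and Pcsk1 only without control 3 or β-tetO-NICD library 1 (otherwise up to 0.128). Both calls were also lost with the length slope as a covariate (−0.85 and −0.48) and in the libraries that lack Eif2s3y (−1.16 and −0.62), and that of Pcsk1 with Eif2s3y (adjusted p = 0.0863) or length class (adjusted p = 0.122) as a covariate.

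Across the 8 libraries and 9595 genes with a mean of at least 10 CPM, the genes whose log2 CPM ran most like Ucn3 were Fbxl2 (Pearson r 0.961), Snx12 (0.957), Mafg (0.956), Rph3a (0.951) and Tollip (0.949). Only Rph3a, which encodes a vesicle protein of regulated secretion, among these 5 also passed the test between groups (log2 fold change −3.69, edgeR adjusted p = 0.00348). By deviations from the group means, Znrf1 (0.964), Dnajc11 (0.961), Gm4737 (0.938), Tmem175 (0.930) and Rfxank (0.904) came highest, and none was shared with the former 5. Sstr3 ran most like Zdhhc2 (0.974), Dcaf12l1 (0.973) and St13 (0.957), and Crhr2 like Drc1 (0.986), Basp1 (0.967) and Pnck (0.963). Sstr2 ran most like Irx2 (0.956) and Irx1 (0.952), both of the α cell list, and Sstr1 like Cpm (0.987), Pag1 (0.973) and Scel (0.964). The libraries share depth, group and the length shift, so these values describe 8 points and carry no test.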

How the data were processed

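The authors isolated islets and used Kallisto for pseudoalignment to GRCm38. Libraries were prepared with a stranded mRNA kit and sequenced by Macrogen. The deposited counts are whole numbers per gene symbol, not normalized. The Kallisto version, annotation release, rounding and strand setting are not given in the sources used here. A deposited table of the authors' own limma comparison (fold changes, averages and p-values) was not used.

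Columns were assigned by name. The 4 control columns and NICD columns 1 and 2 each match 1 mouse, and NICD columns 4 and 5 match only their group, since its labels run from 1 to 4. All 12 same-group pairs differed by more than sampling noise (chi-square of at least 31.5 per gene). The p-values measure the spread between these libraries.

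In R 4.3.3, edgeR 4.0.16 (TMM, quasi-likelihood test, no covariate) was fitted to genes reaching 10 counts in 4 or more libraries, and p was adjusted by Benjamini-Hochberg over all 15082 genes, with a threshold of 0.05. The script was tested on simulated data. CPM used TMM library sizes, log2 CPM a prior count of 2. Two-sided exact permutation tests (scipy 1.17.1) ran over the 70 arrangements of 4 against 4. Positions and lengths are from GENCODE M21 (97.2% of tested genes matched).

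Members and lists were chosen with earlier results of these data known. Named genes were all members, up to 4 called genes of each list (or the 2 most abundant where none was called), and the genes most like each tested member (5 for Ucn3, 3 for the others). Some genes that this rule selects are not reported here. Gnai2 and the further ligands were named as list members, and Eif2s3y and Notch1 as checks of the libraries. The alternatives were DESeq2 1.42.0, limma-voom (limma 3.58.1), other normalizations and filters, removal of the 10 most abundant genes, covariates (acinar score, transcript length, Eif2s3y), a replicate block and leaving out each library. The length class, the unblocked fit of the same libraries and the tests of genes under the minimum were added after seeing the data.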

Additional observations from a re-analysis of the deposited data

Results flagged for a closer look

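In the controls, the acinar list's summed level was 116770 CPM in control 1 and 58951 to 63524 CPM in the other 3, a gap of 0.921 of the group's range. The duct list's summed level was 228.9 CPM in control 4 and 308.27 to 322.64 CPM in the other 3, a gap of 0.847. Both gaps were above Dixon's 95% critical value for 4 samples. Of 49 groups of 4 checked these 2 were past it, where chance gives about 2.5. No value of a loop gene was past it.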

How the results depend on the processing

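Ucn3, Sstr3, Crhr2, Sstr2 and Sst kept their direction under every alternative fitted, and Sstr1 did not, while sizes ranged from 0.56 to 1.91 for Sst and from 0.33 to 0.91 for Sstr2. The Ucn3 call was also lost with length class as a covariate (−1.19), and the Sstr3 call with upper-quartile normalization (−0.66), no filter (−0.75), the length offset (−0.61), length slope (−0.77), Eif2s3y (−0.77), length class (−0.76) and in libraries without Eif2s3y (−1.0). Ucn3 with length slope was −1.23, with Eif2s3y −1.07 and in libraries without Eif2s3y −1.17. Sstr1 turned positive with length slope (0.72), length class (0.18) and in libraries without Eif2s3y (0.30). Ranges on leaving out a library were −1.26 to −0.90 for Ucn3, −0.82 to −0.64 for Sstr3, −1.07 to 0.21 for Sstr1, 0.73 to 1.19 for Crhr2, −0.10 to 0.30 for Ucn3 relative to β cell genes, −0.065 to 0.30 for Crhr2 relative to δ cell genes, −0.50 to −0.36 for Sstr2 relative to α cell genes, −128 to −92.2 CPM for the receptor sum and −0.543 to −0.403 CPM for Crhbp. With 3 against 4 libraries an exact p cannot go below 0.0571. The cause was not tested. Of the 16 settings that leave out no single library, G6pc2 and Trpm5 passed in 15 each, Adcy8 in 14, Slc2a2 in 13, Grk5 and Irx1 in 12, Hhex and Irx2 in 11 and Pcsk1 and C1qa in 10.

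Genes called numbered 1020 (632 higher, 388 lower), and 1158 with upper-quartile normalization (819 higher, 339 lower), 2739 by DESeq2, 2462 with the acinar score, 1556 with the length offset, 454 with length slope, 610 with length class and 122 in libraries without Eif2s3y. Leaving out a library gave 374 (without β-tetO-NICD library 2) to 5010 (without β-tetO-NICD library 1). The replicate block could be fitted only for numbers 1 and 2. Same-numbered libraries correlated at 0.276 and −0.0901 in deviations from the group means. So few values cannot settle whether they were paired, and the labels name no pairing. The replicate block gave 595 calls (52 without it in the same 4 libraries), with Ucn3 at −1.13 (−1.17 without), Sstr3 at −0.81 (−0.80 without) and Sstr1 at 1.0 (1.05 without). Neither Ucn3 nor Sstr3 was called with the replicate block (adjusted p 0.0507 and 0.246) or without it in those 4 libraries (0.303 and 0.511), and Sst was called with it (9.84e-05) and not without (0.386). Crhr1, Sstr4 and Sstr5 had too few counts for these fits. Without a filter, Sstr4 had an adjusted p of 0.173 and Sstr5 of 0.207 by edgeR. Depth limits Crhr1, Sstr4, Sstr5 and Crhbp, all at or below about 30 counts in all but 1 library.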
